A study of Mus musculus with 21 samples.

Results

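The 10 genes that mark the sinusoidal endothelial cells of the liver, Stab1, Stab2, Fcgr2b, Ehd3, Dnase1l3, Clec4g, Lyve1, Kdr, Pecam1 and Oit3, were followed in the livers of mice given titanium dioxide (TiO2) nanoparticles through the trachea. The rule for the 10 genes names known markers and uses no measured value, though it was set with earlier results of these data known. The genes were found among 16535 named genes on the array by matching each probe's transcript accession to a symbol. They had 15 probes, and 9 of the 10 genes were bright enough to be tested.

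Each of 21 microarrays with 2 colours held the liver RNA of 1 female C57BL/6 mouse. Livers were taken from 6 mice 1 day after TiO2 and 5 mice 1 day after vehicle (control), and from 6 mice 28 days after TiO2 and 4 mice 28 days after vehicle. Mice were 5 to 7 weeks old when bought and were kept for 1 to 3 weeks before a single instillation of 40 µl, which held 162 µg of TiO2 in the treated mice. Treated and control mice alike were anaesthetised and received the dispersant, saline mixed with bronchoalveolar lavage supernatant of naive animals. Liver RNA was labelled with Cy5 on every array and a universal mouse reference RNA from cell lines with Cy3, so each level given here is a log2 ratio of liver over reference, and 1 unit is a doubling of that ratio. The labels call the arrays biological replicates and give no pairing.

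Sinusoidal endothelial cells line the liver's smallest vessels. Their wall is fenestrated and has no continuous basement membrane, and they clear waste macromolecules, immune complexes and small particles from portal and arterial blood by endocytosis. Vascular endothelial growth factor signalling through its receptor Kdr keeps this state, and its loss, known as capillarization, brings markers of other vessels such as Cd34 and Vwf. In whole-liver RNA, fewer cells of a type and less RNA per cell cannot be told apart.

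Liver probes above background numbered 12984 to 26608 per array, with the highest numbers on scan day 2. Arrays were scanned on 3 days per the file headers, and each day held arrays of all 4 groups. The first principal component carried 40.1% of the variance, of which scan day accounted for 91.7% and group for 1.52%. All 10 hepatocyte genes on the array were above background on every array, and their median level per array was 5.91 to 7.21. The labels give liver as the source and lung in the extraction protocol. Of 10 lung genes, 3 to 7 were above background per array and 2 on every array, and their median level per array was -0.14 to 0.17. Ager, the marker of lung alveolar type I cells, was the 1 lung gene above background on no array, and is named here after its values were seen. All 13 Kupffer cell and macrophage genes were also above background on every array.

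The 9 tested markers were above background in the liver channel on 21 of 21 arrays. Pecam1, an adhesion molecule of endothelial junctions that is shared with platelets and leukocytes, was above background on only 7 of 21 arrays, all scanned on scan day 2. These were 2 of 6 TiO2 and 2 of 5 control arrays at day 1, and 2 of 6 TiO2 and 1 of 4 control arrays at day 28, so Pecam1 was not tested. Its log2 ratio was lowest at -0.09, median 0.01 and highest 0.10 in TiO2 livers at day 1, against -0.02, 0.01, 0.02, 0.07 and 0.08 in control livers. At day 28 it was lowest at -0.01, median 0.05 and highest 0.16 in TiO2 livers, against -0.09, -0.06, 0.11 and 0.24 in control livers. The groups overlapped on both days.

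The reference channel was dim for 3 of the tested markers, which limits the size of their ratios. It was above background on 8 of 21 arrays for Dnase1l3, on 7 for Lyve1 and on 8 for Kdr, and on all 21 for the other tested markers. For Dnase1l3 these 8 were all 6 arrays of scan day 1 and 1 on each later scan day. Adding a smaller constant after background correction (10 in place of 50) raised the median level of Kdr to 4.95, against 3.53, and that of Dnase1l3 to 3.88, against 2.60. Markers with the reference above background on all 21 arrays rose too, such as Oit3 to 3.59, against 2.38, and Clec4g to 6.18, against 5.05. The level of a marker over the reference is therefore tied to this setting.

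**Figure D1:**
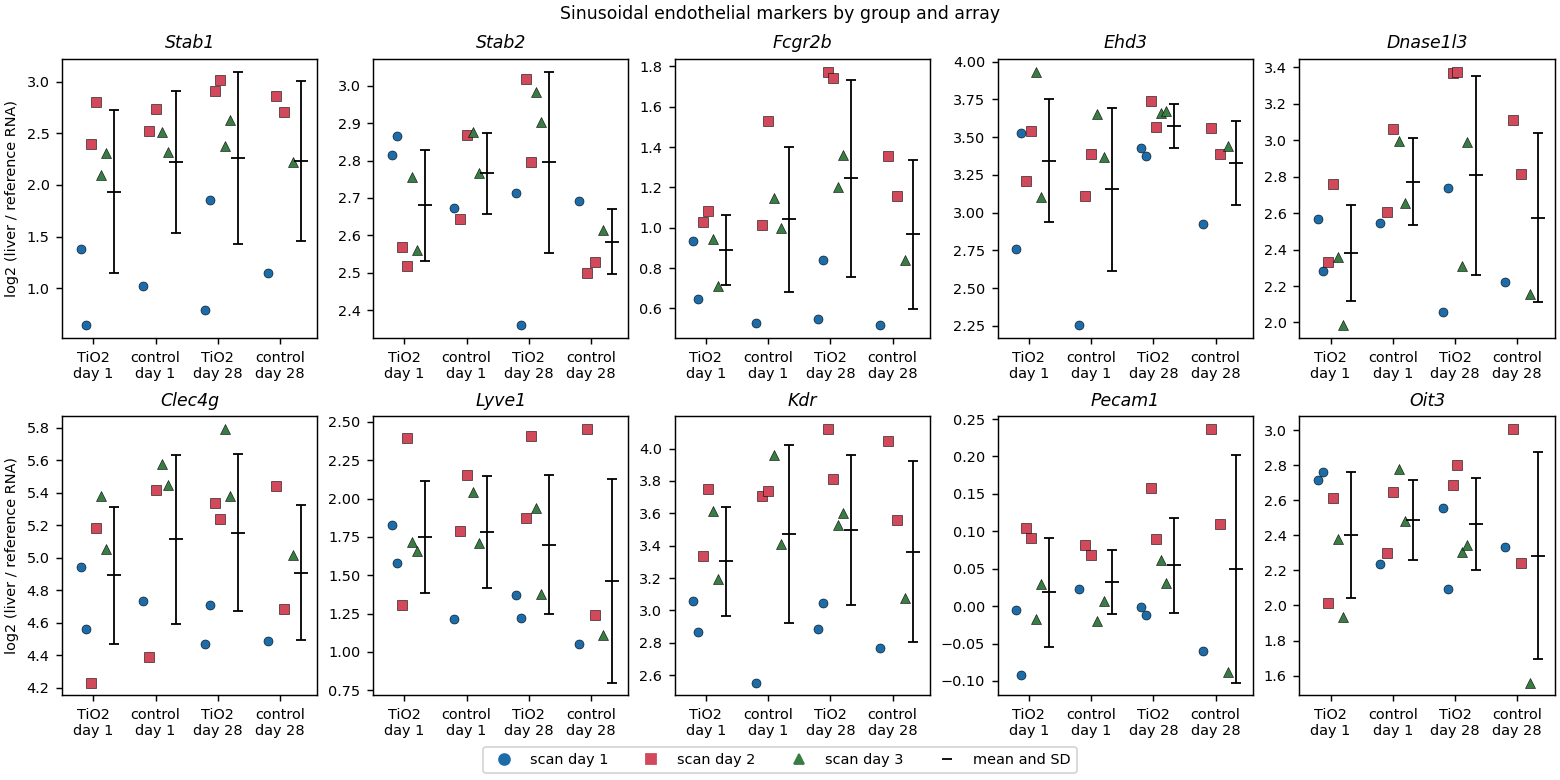
Level of each of the 10 markers (log2 liver over reference RNA, vertical axis, scaled per gene) on every array, by group, with TiO2 left of control on each day. Symbols give the scan day, and the dash and bar give the mean and SD of the group. Stab1 on scan day 1 lay at 0.64 to 1.86, below all arrays of the other scan days, in each of the 4 groups.

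No marker passed the test 1 day after TiO2. With limma's moderated test of 4 group means over all 21 arrays, 0 of 9 markers passed an adjusted p of 0.05, as did 0% of the 17634 features tested (features are named genes, or single probes where no gene is named). No marker had an unadjusted p under 0.05 either, against 1.72% of all features. Differences, TiO2 minus control, lay between -0.39 and 0.19, with Ehd3 the 1 of 9 above 0, against 48.1% of all features. Their median was -0.15, against -0.0055 over all features. Groups overlapped for each of the 10 genes, and they did not for 0.115% of the features measured on all arrays. Lyve1 turned above 0 with scan day or slide in the model, without background correction and in the authors' deposited table, where 2 of 9 markers were above 0.

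The scavenger receptors stabilin-1 and stabilin-2, encoded by Stab1 and Stab2, bind oxidised lipoproteins, and stabilin-2 binds hyaluronan. Stab1 in TiO2 livers at day 1 was lowest at 0.64, median 2.20 and highest 2.80, against 1.03, 2.32, 2.51, 2.52 and 2.73 in control livers. The low values in both groups were the arrays of scan day 1, and the groups overlapped. The difference was -0.29 ± 0.43 (SE, n = 6 and 5), a 0.82-fold ratio whose 95% interval ran from 0.444 to 1.52. With scan day as a block it was -0.10 ± 0.15 (SE), with a 95% interval from -0.41 to 0.21 in log2. The difference was -0.05 with slide as a block, -0.03 without TiO2 replicate 2 and -0.58 without control replicate 1. The second Stab1 probe, above background on 6 of 21 arrays, gave 0.16 at day 1 and -0.10 at day 28, in each case the opposite sign.

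Stab2 had the smallest standard error of the 9 markers. At day 1 it was lowest at 2.52, median 2.66 and highest 2.87 in TiO2 livers, against 2.64, 2.67, 2.77, 2.87 and 2.88 in control livers. The control range held 3 of 6 TiO2 livers and the other 3 lay below it, and the difference was -0.09 ± 0.11 (SE). The 95% interval of the ratio was 0.807 to 1.10.

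Dnase1l3, a secreted nuclease that degrades DNA in circulating chromatin, gave the lowest difference at day 1. It was lowest at 1.98, median 2.35 and highest 2.76 in TiO2 livers, against 2.55, 2.60, 2.65, 3.00 and 3.06 in control livers. Of 6 TiO2 livers, 4 were below the control range and 0 above the control mean, and the groups overlapped through the other 2 livers. The difference was -0.39 ± 0.22 (SE), with an unadjusted p of 0.096 and an adjusted p of 0.9998 by limma. It was -0.12 among arrays of scan day 1, -0.29 among those of scan day 2 and -0.65 among those of scan day 3. With slide as a block, the unadjusted p was 0.020 (adjusted p = 0.947), and Dnase1l3 was then the 1 marker under 0.05, against 4.5% of all features.

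Fcgr2b, the inhibitory Fc receptor with which these cells take up immune complexes, was lowest at 0.65, median 0.94 and highest 1.08 in TiO2 livers at day 1. In control livers it was 0.53, 1.00, 1.02, 1.15 and 1.53. Every TiO2 value was within the control range, and the difference was -0.15 ± 0.21 (SE). The other 2 Fcgr2b probes, above background on all arrays, gave -0.11 and -0.28.

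Clec4g and Lyve1 were spread widely within both groups. Clec4g, the C-type lectin LSECtin, was lowest at 4.23, median 5.00 and highest 5.38 in TiO2 livers at day 1, against 4.39, 4.73, 5.42, 5.45 and 5.58 in control livers. Lyve1, a hyaluronan receptor shared with lymphatic vessels, was lowest at 1.31, median 1.69 and highest 2.40 in TiO2 livers, against 1.22, 1.71, 1.79, 2.04 and 2.15 in control livers. For Clec4g 1 of 6 TiO2 livers was below the control range, and for Lyve1 1 was above it. The differences were -0.22 ± 0.26 for Clec4g and -0.03 ± 0.26 for Lyve1 (SE).

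Kdr, the receptor for vascular endothelial growth factor, was lowest at 2.87, median 3.26 and highest 3.75 in TiO2 livers at day 1, against 2.55, 3.41, 3.71, 3.74 and 3.96 in control livers. All 6 TiO2 values were within the control range, and the difference was -0.17 ± 0.26 (SE). Ehd3, an ATPase of endocytic recycling, was lowest at 2.76, median 3.37 and highest 3.93 in TiO2 livers, against 2.25, 3.11, 3.37, 3.39 and 3.65 in control livers. Its difference of 0.19 ± 0.21 (SE) was -0.04 without control replicate 1, the array at 2.25. Oit3, a secreted protein with a zona pellucida domain, was lowest at 1.93, median 2.49 and highest 2.76 in TiO2 livers, against 2.24, 2.30, 2.48, 2.65 and 2.78 in control livers. Below the control range were 2 of 6 TiO2 livers, and the difference was -0.09 ± 0.21 (SE).

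No marker passed the test 28 days after TiO2. Again 0 of 9 markers passed the adjusted p of 0.05, as did 0% of all features, and none had an unadjusted p under 0.05, against 0.947%. The 9 differences were all above 0, from 0.03 to 0.28, as were 51.4% of all features. On the scanner software's own log ratios, however, 4 of the 9 were below 0, and 5 were when marked spots kept their own local background. The latter setting compressed the log ratios of 3 day 28 arrays. Stab1 alone was below 0 in the deposited table, without background correction and with probes averaged. Groups overlapped for each of the 10 genes, and they did not for 0.275% of the features measured on all arrays. The median over the markers was 0.23, against 0.004 over all features. The markers share arrays and are not independent of each other, so their common sign is not a count of separate observations.

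Stab2 at day 28 was lowest at 2.36, median 2.85 and highest 3.02 in TiO2 livers, against 2.50, 2.53, 2.61 and 2.69 in control livers. Above the control range lay 5 of 6 TiO2 livers and below it 1, from scan day 1. The difference was 0.21 ± 0.12 (SE, n = 6 and 4), with an unadjusted p of 0.079 and an adjusted p of 0.9999 by limma, and a ratio of 1.16 (95% interval 0.981 to 1.37). It was -0.16 among arrays of scan day 1, 0.39 among those of scan day 2 and 0.33 among those of scan day 3. With slide as a block, Stab2 (unadjusted p = 0.014), Fcgr2b (0.019), Clec4g (0.043) and Ehd3 (0.049) were under 0.05, 4 of 9 markers against 2.82% of all features, with adjusted p-values of 0.9999 or more by limma. TiO2 replicates 2 and 6 were each alone on a slide, so these 2 livers did not enter the differences of that fit. Replicate 2 was the TiO2 liver with Stab2 below the control range. Stab1 was lowest at 0.79, median 2.50 and highest 3.02 in TiO2 livers, against 1.15, 2.22, 2.70 and 2.86 in control livers, a difference of 0.03 ± 0.45 (SE). With scan day as a block it was 0.20 ± 0.16 (SE), and it was -0.33 without control replicate 1.

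Fcgr2b at day 28 was lowest at 0.55, median 1.28 and highest 1.77 in TiO2 livers, against 0.52, 0.84, 1.16 and 1.36 in control livers. Above the control range were 3 of 6 TiO2 livers, and none was below it. The difference was 0.28 ± 0.22 (SE), and the other 2 probes gave 0.15 and 0.24. With scan day as a block it was 0.36 ± 0.13 (SE), with an unadjusted p of 0.012 and an adjusted p of 0.9999 by limma. Fcgr2b was then the 1 marker of 9 with an unadjusted p under 0.05, against 2.95% of all features, and its difference was 0.18 on scan day 1, 0.50 on scan day 2 and 0.44 on scan day 3.

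Ehd3 at day 28 was lowest at 3.38, median 3.62 and highest 3.74 in TiO2 livers, against 2.92, 3.39, 3.44 and 3.56 in control livers. All 6 TiO2 livers were above the control mean and 4 were above the control range, and the difference was 0.25 ± 0.22 (SE). Dnase1l3 was lowest at 2.06, median 2.86 and highest 3.37 in TiO2 livers, against 2.15, 2.22, 2.81 and 3.11 in control livers, with a difference of 0.23 ± 0.24 (SE). Its values lay on both sides of the control range.

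Clec4g at day 28 was lowest at 4.47, median 5.29 and highest 5.79 in TiO2 livers, against 4.49, 4.68, 5.02 and 5.44 in control livers. Kdr was lowest at 2.88, median 3.57 and highest 4.12 in TiO2 livers, against 2.77, 3.08, 3.56 and 4.05 in control livers. For each gene 1 TiO2 liver was above the control range, for Clec4g 1 was also below it, and the differences were 0.25 ± 0.28 for Clec4g and 0.14 ± 0.28 for Kdr (SE). That of Kdr was -0.06 without control replicate 1.

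The differences of Lyve1 and Oit3 at day 28 also shifted when single livers were left out, that of Lyve1 in size and that of Oit3 in sign. Lyve1 was lowest at 1.22, median 1.63 and highest 2.41 in TiO2 livers, against 1.05, 1.11, 1.24 and 2.45 in control livers. Oit3 was lowest at 2.09, median 2.45 and highest 2.80 in TiO2 livers, against 1.56, 2.24, 2.33 and 3.01 in control livers. All TiO2 values of both genes were within the control range. The difference of Lyve1, 0.24 ± 0.27 (SE), was 0.57 without control replicate 2 and 0.09 without TiO2 replicate 4, and that of Oit3, 0.18 ± 0.22 (SE), was -0.06 without control replicate 4.

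**Figure D2:**
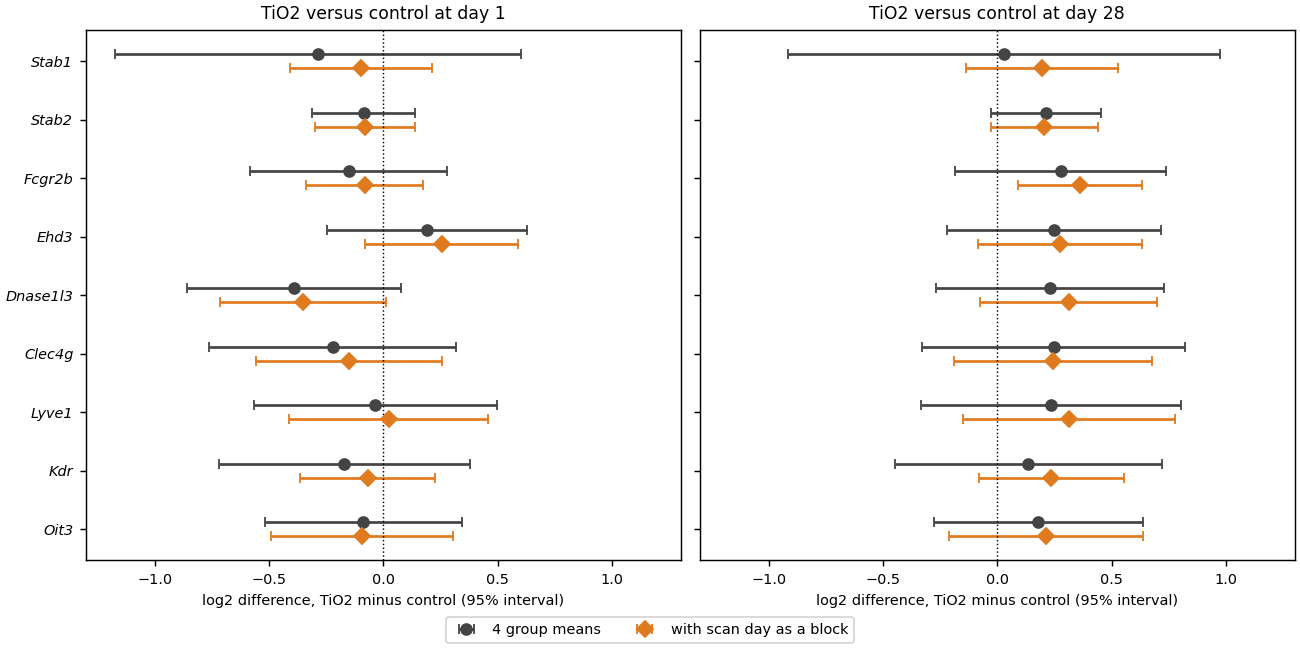
Difference of each tested marker, TiO2 minus control (log2, horizontal axis), at day 1 on the left and day 28 on the right, with its 95% interval, from the model of 4 group means (circles) and with scan day as a block (diamonds). At day 1 the circles span -0.39 to 0.19 and each interval includes 0, and at day 28 the interval of Fcgr2b with scan day as a block is the 1 that does not include 0.

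The 2 effects were compared directly, as the TiO2 effect at day 28 minus that at day 1. None of 9 markers passed the adjusted p of 0.05, as did 0% of all features, or an unadjusted p of 0.05, against 0.703%. All 9 were above 0, against 51.1% of all features, with a median of 0.31, but Stab1 turned below 0 on the scanner software's log ratios. Lyve1 and Oit3 did so when marked spots kept their own local background, which compressed 3 day 28 arrays. Dnase1l3 had a difference of effects of 0.62 ± 0.33 (SE, unadjusted p = 0.072, adjusted p = 0.9999 by limma), Clec4g of 0.47 ± 0.38, Fcgr2b of 0.43 ± 0.30 and Stab2 of 0.30 ± 0.16 (SE). With scan day as a block, the unadjusted p was 0.016 for Dnase1l3 and 0.022 for Fcgr2b, 2 of 9 markers against 2.9% of all features, with adjusted p-values from 0.9989 upwards. Slide as a block gave 4 of 9 markers, against 2.08%, again without a part for TiO2 day 28 replicates 2 and 6, each alone on a slide.

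Livers of each treatment were also compared between days. TiO2 livers at day 28 against TiO2 livers at day 1 gave 0 of 9 markers past the adjusted p of 0.05, against 0.034% of all features, and 0 of 9 had an unadjusted p under 0.05, against 3.8%. Differences ran from -0.05 for Lyve1 to 0.42 ± 0.21 for Dnase1l3 (SE), 8 of 9 above 0, against 51.3% of all features. However, 8 of 9 markers changed sign when marked spots kept their own local background, which compressed 3 day 28 arrays. With scan day as a block, Fcgr2b (unadjusted p = 0.0061), Dnase1l3 (0.018) and Stab1 (0.031) were under 0.05, against 8.74% of all features, with adjusted p-values of 0.389 or more by limma. Control livers at day 28 against control livers at day 1 gave 0 of 9 markers past the adjusted p, as did 0% of all features, and 0 of 9 under an unadjusted p of 0.05, against 3.02%. Differences ran from -0.32 ± 0.28 for Lyve1 to 0.17 ± 0.23 for Ehd3 (SE), 2 of 9 above 0, against 48.7% of all features; Fcgr2b, Kdr, Oit3, Stab1 and Ehd3 changed sign when single arrays were left out. These comparisons share arrays with the TiO2 effects above.

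Several markers differed in level between scan days. Scan day accounted for 86.5% of the variance of Stab1, 71.2% of that of Kdr and 57.1% of that of Fcgr2b, but for 13.0% for Oit3 and 7.32% for Stab2, against a median of 35.7% over all features. Arrays of scan day 1 had Stab1 at 0.64 to 1.86, those of scan day 2 at 2.39 to 3.02, and those of scan day 3 at 2.09 to 2.63. In the deposited table the same arrays lay at 0.57 to 1.77, 2.55 to 3.17 and 1.95 to 2.58. Within scan days the signs at day 1 were mixed: 7 of 9 markers were above 0 on scan day 1, where the control group had a single array, and 1 of 9 on each of scan days 2 and 3. At day 28, 7, 9 and 9 of 9 were above 0 on scan days 1, 2 and 3, with 1, 2 and 1 control arrays.

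A trend of the ratios along the rows of an array also differed between scan days, and its part in the levels of the single-spot markers was tested only by removing it. Over 12044 spots above background on every array, arrays were cut into 5 bands of the 532 rows, and the median log2 ratio in the last band minus that in the first was taken. It was -1.20 to -0.30 for arrays of scan day 1, -0.09 to 0.01 for scan day 2 and -0.31 to -0.10 for scan day 3. The Stab1 spot is in row 472, near one end. With the trend along rows taken off each array, Stab1 lay at 1.35 to 2.14 on scan day 1 and at 2.38 to 3.08 on the other days. The ranges stayed apart, as they were before at 0.64 to 1.86 and 2.09 to 3.02. Scan day then accounted for 83.4% of the variance of Stab1, against 86.5% before. For Fcgr2b, whose 10 spots lie between rows 32 and 504, the share dropped to 34.0%. With this trend removed, 0 of 9 markers were called in either TiO2 comparison, as were 0 of all features. The markers' median differences were -0.12 at day 1 and 0.22 at day 28, against 0.0017 and -0.0012 over all features.

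For 3 markers the array has 10 replicate spots, which give the spread between spots within an array but not the error of labelling or hybridisation. The SD between spots of 1 array was 0.34 for Fcgr2b, 0.49 for Kdr and 0.14 for Pecam1. The mean over spots then had a standard error of 0.11, 0.16 and 0.05 if spots are taken as independent, which a trend along rows breaks. Between mice of a group, the SD of that mean was 0.37 for Fcgr2b, 0.47 for Kdr and 0.09 for Pecam1, and 0.21, 0.25 and 0.05 once scan day was taken out. The spots of Fcgr2b spread most on scan day 1, with a median SD of 0.60 against 0.06 on scan day 2 and 0.14 on scan day 3, and 0.26, 0.07 and 0.13 after removal of the row trend. For Kdr the scan day 1 value was 0.53 after removal, against 0.77 before, and for Pecam1 it was 0.36 after removal, against 0.15 before. The other 7 markers rest on 1 spot of the probe used, so their spot error was not measured.

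**Figure D3:**
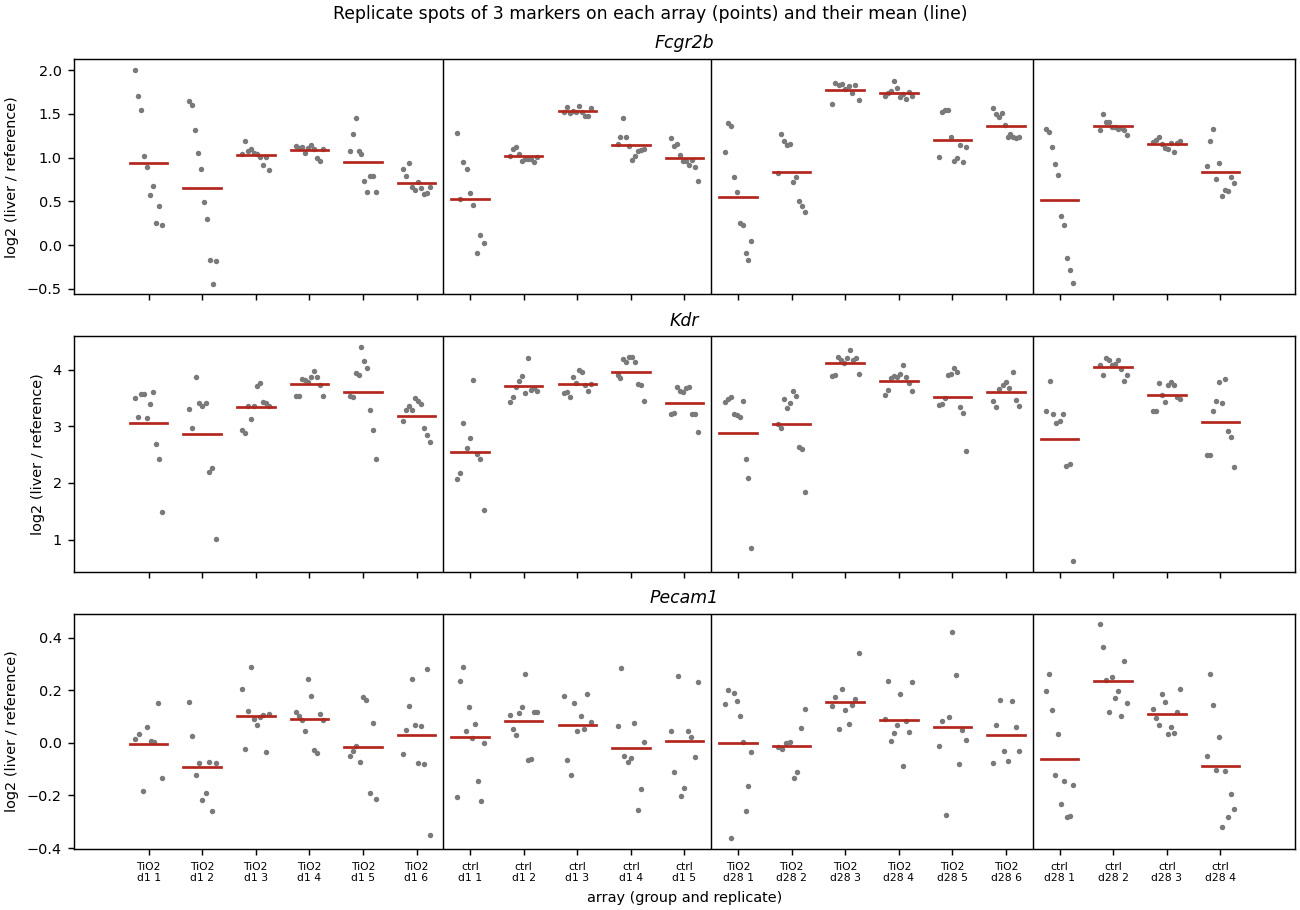
Log2 ratio of liver over reference for each replicate spot (points, in row order) and their mean (line) of Fcgr2b, Kdr and Pecam1 on each of the 21 arrays, ordered by group with TiO2 left of control on each day. The spots of Fcgr2b fall with row on the scan day 1 arrays (replicates 1 and 2 of the TiO2 groups and replicate 1 of the control groups), with a median SD of 0.60.

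The markers varied together from array to array, with differences between groups left in. After each scan day's mean was taken off, 35 of 36 pairs of the 9 tested markers had a positive Pearson correlation over 21 arrays, with a median of 0.52, and 14 pairs were over 0.6. The highest was between Fcgr2b and Dnase1l3, at 0.83, followed by Lyve1 and Oit3 at 0.81, and the lowest was between Stab1 and Stab2, at -0.11. All pairs share the same hybridisations, labelling and reference. Control day 1 replicate 4 and TiO2 day 28 replicate 4 had 9 of 9 markers above the scan day's mean. TiO2 day 1 replicate 3, control day 1 replicate 2 and control day 28 replicates 3 and 4 had none. At day 28 the TiO2 livers had 4 to 9 of 9 markers above the scan day's mean, and the control livers 2, 8, 0 and 0.

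**Figure D4:**
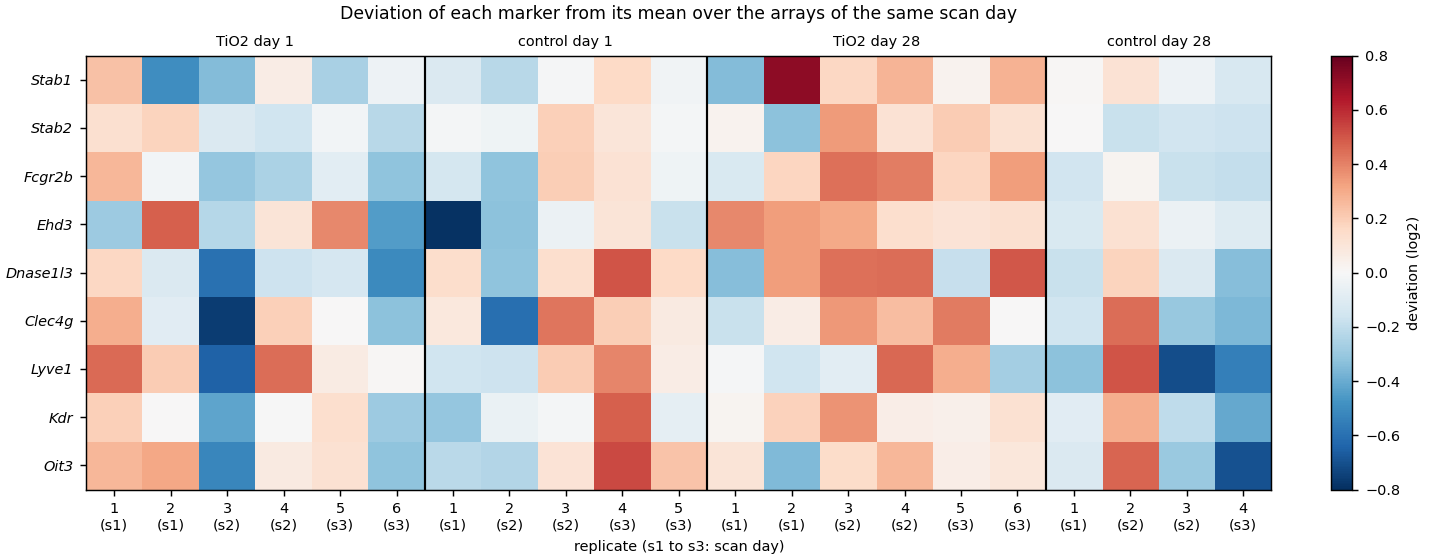
Deviation (log2, colour) of each tested marker, in rows, from its mean over arrays of the same scan day, for the 21 arrays in columns, grouped as TiO2 and control at day 1 and TiO2 and control at day 28. Columns tend to hold 1 colour, as in TiO2 day 1 replicate 3, whose mean deviation is -0.44, and control day 1 replicate 4, at 0.29.

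Other genes were compared with the mean of the standardised markers over the 21 arrays, after each scan day's mean was taken off. Of 11112 other named genes, the 5 that followed it most closely were Rasgrp3 (Pearson r = 0.84), Ets1 (0.78), Sel1l3 (0.78), Bace2 (0.78) and Mrc1 (0.76). Rasgrp3 encodes an exchange factor for Ras proteins, Ets1 a transcription factor, Bace2 a membrane protease and Mrc1 the mannose receptor, which sinusoidal endothelial cells and macrophages carry. They were picked on these same arrays, so a group pattern like that of the markers is in part built into the choice. Their differences between TiO2 and control livers were -0.11, -0.08, -0.20, -0.09 and -0.15 at day 1, in that order, and 0.17, 0.22, 0.31, 0.11 and -0.01 at day 28. With scan day means taken off in the same way, the median correlation was 0.57 for 16 pan-endothelial genes and 0.35 for 16 other genes enriched in sinusoidal endothelium. It was 0.25 for 12 stellate cell genes, 0.23 for 10 hepatocyte genes and 0.13 for 13 Kupffer cell and macrophage genes, against 0.05 for all 11112 genes. It was 0.12 for 6 lung genes, -0.10 for 14 genes of vascular endothelial growth factor and angiopoietin signalling, and -0.12 for 15 large-vessel, capillarization and lymphatic genes.

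Genes around the markers gave no call at either day. For the counts of each list below, 48.1% of all features were higher in TiO2 livers at day 1 and 51.4% at day 28. With scan day as a block these shares were 45.9% and 48.9%. Of the 16 other genes enriched in sinusoidal endothelium, 6 were higher and 10 lower in TiO2 livers at day 1 (median -0.03), and 9 were higher and 7 lower at day 28 (median 0.05). With scan day as a block, 10 of the 16 were higher at day 1 (median 0.01) and 12 at day 28 (median 0.07). Gpr182, an atypical chemokine receptor of these cells, gave -0.50 ± 0.41 at day 1, and F8, coagulation factor VIII, gave 0.21 ± 0.15 at day 28 (SE). Of 16 pan-endothelial genes, 3 were higher and 13 lower at day 1 (median -0.10), and 13 were higher and 3 lower at day 28 (median 0.04). Sox18, an endothelial transcription factor, gave -0.43 ± 0.18 at day 1 (SE, unadjusted p = 0.023, adjusted p = 0.9998 by limma).

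Markers of vessels other than sinusoids did not pass the test. Of 16 large-vessel, capillarization and lymphatic genes, 6 were higher and 10 lower at day 1 (median -0.04), and 7 were higher and 9 lower at day 28 (median -0.03). Ccl21a, a lymphatic chemokine, gave -0.27 ± 0.20 at day 28 (SE). Of 15 genes of vascular endothelial growth factor and angiopoietin signalling, 9 were higher and 6 lower at day 1 (median 0.01), and 8 were higher and 7 lower at day 28 (median 0.01). With scan day as a block, 7 of the 15 were higher at day 1 (median -0.003) and 6 at day 28 (median -0.04). Pgf, a ligand of this pathway, gave 0.16 ± 0.10 at day 1 and -0.20 ± 0.11 at day 28 (SE), and Nrp1, a co-receptor of Kdr, gave 0.23 ± 0.18 at day 28.

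Other liver cells were read beside the markers. Of 13 Kupffer cell and macrophage genes, 10 were higher and 3 lower in TiO2 livers at day 1 (median 0.10), and 12 were higher and 1 lower at day 28 (median 0.16). Of all features, 48.1% and 51.4% were higher. Slc40a1 was lower on both days, at -0.11 ± 0.15 and -0.16 ± 0.16 (SE). Folr2, a folate receptor of macrophages, gave 0.55 ± 0.26 at day 1 (SE, unadjusted p = 0.043, adjusted p = 0.9998 by limma), and C1qb, a chain of complement C1q, gave 0.48 ± 0.23 at day 28. Of 10 hepatocyte genes, 4 were higher at day 1 (median -0.09) and 6 at day 28 (median 0.01), and with scan day as a block 5 were higher on each day (medians 0.002 and 0.02). Of 12 stellate cell genes, 5 were higher at day 1 (median -0.05) and 7 at day 28 (median 0.05), and of 6 tested lung genes 4 were higher at day 1 (median 0.05) and 3 at day 28 (median 0.0002). Rgs5, a pericyte and stellate cell gene, gave -0.37 ± 0.38 at day 1 and 0.31 ± 0.41 at day 28 (SE). With scan day as a block it gave -0.22 at day 1 and 0.49 at day 28 (unadjusted p = 0.00055, adjusted p = 0.9999 by limma). It was then the 1 of 12 stellate cell genes with an unadjusted p under 0.05 at day 28, against 2.95% of all features. Reln, of the same list, gave -0.10 ± 0.20 at day 28 (SE). The part of these cells in the markers' values was not tested.

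**Figure D5:**
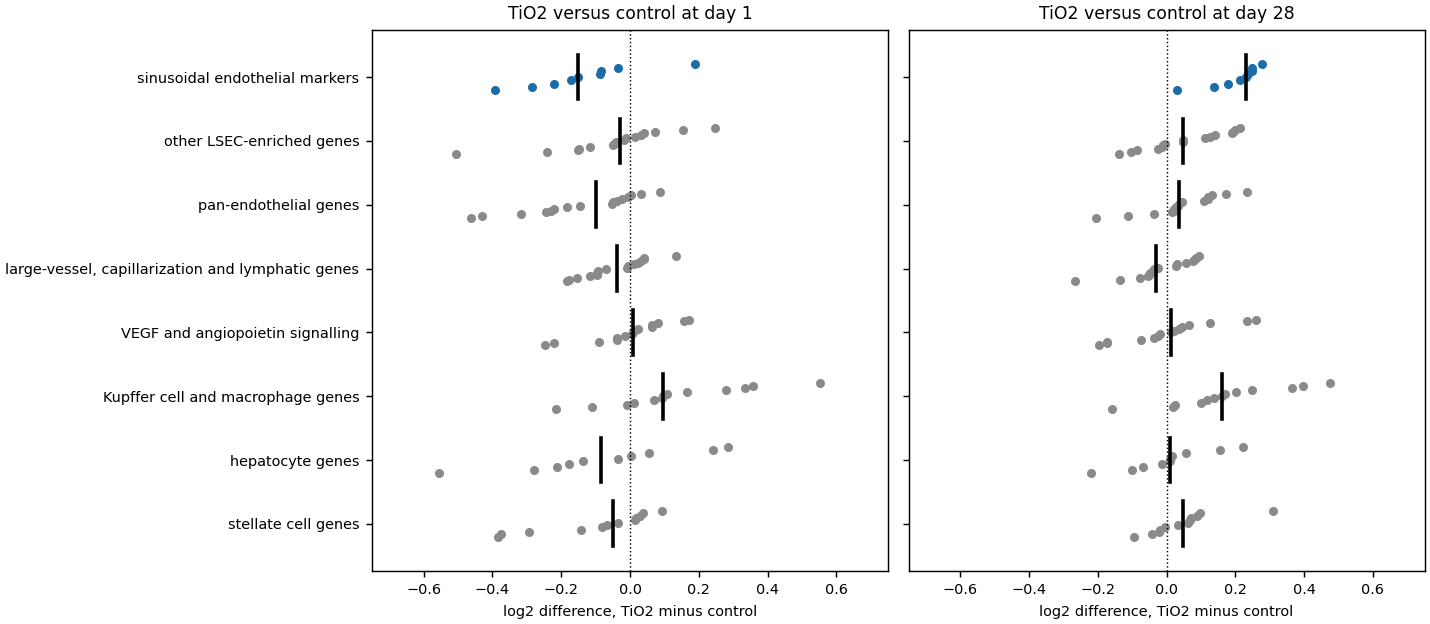
Difference of each tested gene, TiO2 minus control (log2, horizontal axis), at day 1 on the left and day 28 on the right, by gene list, with the list's median as a bar. The sinusoidal endothelial markers (blue) have a median of -0.15 at day 1 and 0.23 at day 28, and the 13 Kupffer cell and macrophage genes medians of 0.10 and 0.16.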

How the data were processed

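The 21 scanner files hold spot intensities as deposited, made with Agilent Feature Extraction 10.7.3.1 per the file headers, with 9.5.3.1 given in the submitters' processing notes. The deposited log10 ratio of the scanner software, Cy5 over Cy3, and the authors' deposited table of log2 ratios served as alternatives. That table correlated with the values used here at 0.996 to 0.997 per array, with slopes of 0.991 to 0.993 and column medians of -0.06 to -0.01, so its scale is log2, its direction liver over reference, and its rows are not centred per gene. The series text speaks of 22 arrays, and 21 were analysed here.

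Median spot signals were background-corrected by normexp (offset 50) in limma 3.58.1 under R 4.3.3, and mean spot signals were not used. Spots marked as uneven or as outliers were left out (103 to 493 per array), and 1043 to 2829 spots per array with a marked spot or background took the array's median background. Loess within arrays gave 0 weight to 1639 control spots. Replicate spots were averaged over 43379 other spots into 41174 probes. A probe passed if it was above background in at least 50% of the arrays of 1 group (21397 probes), and the brightest probe stood for a gene. RefSeq accessions named 23374 probes with 1 symbol each, and 17800 had none. This left 17634 features, 11249 of them named genes, and 172 lacked a value on some array. The number of arrays limits the precision, and no probe's level is set against another's.

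The means of 4 groups were fitted to all 21 arrays with lmFit and eBayes, with Benjamini-Hochberg adjustment over all features in each of 5 comparisons. Alternatives changed the block (scan day, slide), background, scaling, filter, probe rule, array trend and arrays used. The fit was tested on simulated data with independent noise, no effect of scan day or slide, and shifts larger than any marker difference of the main fit. That test therefore does not bear on scan day, slide or differences of the size seen here. The markers, gene lists and tests were chosen with earlier results of these data known. Named genes are the 10 markers, the 5 genes most alike by correlation and, from the other lists, some of those with the 2 lowest or 2 highest moderated t at either day. Which of these are given, and Ager, was chosen after the values were seen.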

Additional observations from a re-analysis of the deposited data

Results flagged for a closer look

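In 2 of 40 sets of 4 to 6 values (10 markers in 4 groups) 1 array lay far from the others, by the gap to its neighbour relative to the range, and chance marks about 1 in 20. Stab1 was 1.03 in control day 1 replicate 1, against 2.32 to 2.73 in the other 4 control livers of that day. That array was the group's 1 array from scan day 1, where Stab1 lay at 0.64 to 1.86 in all groups. Lyve1 was 2.45 in control day 28 replicate 2, against 1.05 to 1.24 in the other 3, and 8 of 9 markers of that array were above the mean of its scan day.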

How the results depend on the processing

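Over 36 settings, 0 of 1620 marker values passed the adjusted p of 0.05, and the smallest adjusted p was 0.389. No paired analysis was possible because the labels give no replicate numbers or pairs. The shared slides named in the file headers were used as a block instead. As a fixed block, slide took TiO2 day 28 replicates 2 and 6 out of the comparisons, since each was alone on its slide. The cause of a changed sign was not tested.

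Lyve1 in TiO2 versus control at day 1 was 0.023 under the scan day block, 0.021 under slide as a fixed block, 0.0072 under slide as a random block, 0.019 without background correction and 0.0055 in the deposited table. Lyve1 in TiO2 day 28 versus day 1 was 0.013 under slide as a fixed block, 0.0017 without background correction, 0.27 on the scanner's log ratios, 0.010 in the deposited table and 0.13 without the arrays of scan day 1. Stab1 in TiO2 versus control at day 28 was -0.038 without background correction, -0.051 in the deposited table and -0.033 with probes averaged. For control day 28 versus day 1, Stab1 was -0.0030 with scaling between arrays and Kdr 0.073 in the deposited table.

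On the scanner's log ratios, TiO2 versus control at day 28 was -0.18 for Stab1, -0.35 for Dnase1l3, -0.19 for Clec4g and -0.20 for Kdr, the difference of effects of Stab1 was -0.051, and control day 28 versus day 1 was 0.050 for Clec4g and 0.037 for Kdr. Normexp on all spots as they are left marked spots on their own local background. It compressed 3 day 28 arrays (TiO2 replicates 3 and 5 and control replicate 4) to SDs of log ratios of 0.48 to 0.65, against 0.94 to 1.09 over arrays otherwise. It gave TiO2 versus control at day 28 as -0.091 for Stab1, -0.031 for Dnase1l3, -0.056 for Lyve1, -0.086 for Kdr and -0.13 for Oit3, and differences of effects of -0.0091 for Lyve1 and -0.026 for Oit3. It gave control day 28 versus day 1 as -0.52 for Stab1 and -0.62 for Ehd3, and TiO2 day 28 versus day 1 as -0.31 for Stab1, -0.64 for Stab2, -0.0025 for Fcgr2b, -0.45 for Ehd3, -0.34 for Dnase1l3, -0.63 for Clec4g, -0.74 for Kdr and -0.61 for Oit3.

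Leaving out 1 array at a time, signs turned within these ranges. TiO2 versus control at day 1 was -0.036 to 0.31 for Ehd3, -0.18 to 0.058 for Lyve1 and -0.16 to 0.0070 for Oit3. At day 28 it was -0.33 to 0.32 for Stab1, -0.061 to 0.36 for Kdr and -0.062 to 0.42 for Oit3. The difference of effects was -0.044 to 0.62 for Stab1 and -0.076 to 0.28 for Ehd3. Control day 28 versus day 1 was -0.29 to 0.37 for Stab1, -0.20 to 0.075 for Fcgr2b, -0.052 to 0.31 for Ehd3, -0.34 to 0.085 for Kdr and -0.45 to 0.037 for Oit3. TiO2 day 28 versus day 1 was -0.19 to 0.080 for Lyve1 and -0.032 to 0.14 for Oit3.

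Features called in TiO2 day 28 versus day 1 (6) became 20 under the scan day block, 14 and 32 under slide as a fixed and a random block, 3 with offset 10, 3 with normexp on all spots, 2 with scaling, 1 on the scanner's log ratios, 1 without the arrays of scan day 1, 15 with the row trend removed under the scan day block, and 5 to 8 with 1 array left out. TiO2 versus control at day 1 (0) gave 3 under slide as a random block and 0 to 3 with 1 array left out (3 without TiO2 replicate 2). Control day 28 versus day 1 (0) gave 1 with the row trend removed under the scan day block, and 0 to 1 with 1 array left out (1 without control day 1 replicate 4). Removing the row trend and leaving out scan day 1 were chosen after seeing the data.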
